A study of Mus musculus with 6 samples.

Results

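The genes described here encode dioxygenases that need molecular oxygen and 2-oxoglutarate, chosen by name from a list of 45 mouse genes in 6 classes. Of these, 41 had a probe set that the array annotation gives to that gene alone, among 22180 such genes on the array. The other 4 (Plod3, Kdm2b, Alkbh1 and Jmjd6) share their probe sets with a second gene and were given no value. The samples were splenic CD4+ T cells of female, wild-type C57BL/6 mice about 8 weeks old. One group had been kept with icilin (100 µM) for 24 h, and the other with its solvent DMSO (vehicle) for the same 24 h. Before that, all cells of both groups had been stimulated for 24 h with antibodies to CD3 and CD28 (10 µg/mL of each). Each group held 3 arrays, made from cells of the same 3 mice. Icilin is a synthetic cooling agent known as an opener of the cation channels TRPM8 and TRPA1.

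These enzymes hold an iron atom at the active site, split oxygen, and turn 2-oxoglutarate into succinate and carbon dioxide while they hydroxylate or demethylate a substrate. The best known act on hypoxia-inducible factor (HIF): prolyl hydroxylases mark its alpha subunits for the VHL ubiquitin ligase, and an asparaginyl hydroxylase blocks its contact with coactivators. Others hydroxylate collagen, oxidise methylcytosine in DNA, or remove methyl groups from histones, DNA and RNA, and several of their genes are themselves induced by HIF in low oxygen. Activated T cells are known to raise HIF, and TET and histone demethylase genes have known roles in T helper differentiation.

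Levels below are log2 signals after robust multi-array averaging (RMA), and differences are log2 fold changes, icilin minus vehicle, ± SE from limma. A gene passed the test at a limma adjusted p (Benjamini-Hochberg over all 22180 genes) under 0.1, and is said to be called where it also changed by at least 1.5-fold, which is 0.58 on the log2 scale. The median SE was 0.08 over the members and 0.09 over all genes. Signals of different probe sets are not comparable as amounts. The T cell markers Cd3e and Cd4 were bright in both groups (icilin 11.6 and 11.1, vehicle 11.7 and 11.0), and 7 of 7 measured T cell markers lay above the median gene. Of 25 markers of CD8 T and natural killer, B, myeloid and stromal cells, 8 did so. Summed on the linear scale, T cell markers reached 9614 to 10050 in icilin and 9327 to 10040 in vehicle arrays. Those of B cells reached 166 to 175 in icilin and 142 to 152 in vehicle arrays, and those of CD8 T and natural killer cells 162 to 200 in icilin and 152 to 168 in vehicle arrays. Those of myeloid and dendritic cells reached 144.5 to 151 in icilin and 159 to 165 in vehicle arrays, and those of stromal cells 241 to 256 in icilin and 255 to 266 in vehicle arrays. Single genes weigh heavily in such sums, which therefore give no share of cells. Ms4a1 averaged 5.09 in icilin and 4.07 in vehicle arrays, while Cd79b differed by -0.01. Cd8b1 averaged 6.86 and 6.47, while Cd8a differed by 0.01. Cd68 and Pecam1 were the brightest of the myeloid and stromal markers. Among all these markers, Cd28 (0.34) and Ms4a1 (1.01) passed higher and Klrd1 (-0.27) passed lower, and their part in the results below was not tested.

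Dioxygenase genes that passed the test were all lower with icilin. Of 41 members, 11 fell (26.8%) and 0 rose, where 3.00% of all genes tested passed lower and 2.27% passed higher. Bright genes passed more often, and 39 of the 41 members were brighter than the median gene. Among the 11090 genes brighter than the median gene, 569 passed lower and 431 higher, and 197 were called lower and 65 higher. By the study's own limits, 3 members were called lower, Plod2, P4ha2 and Egln3 (7.32%), against 1.03% of all genes, and 0 were called higher, against 0.370%. At an unadjusted limma p under 0.05, 13 members were lower and 2 higher, beside 1785 lower and 2017 higher of all 22180 genes. Significance analysis of microarrays (SAM), the study's own test, also called 3 members lower and 0 higher, beside 242 and 87 of all genes. In 13 members the icilin arrays lay wholly below the vehicle arrays and in 6 wholly above. This was so for 10.5% and 13.6% of all genes, and for 1677 and 2400 of the 11090 brighter genes. The median over the 41 members was -0.04, beside 0.01 over all genes, so the falls belonged to a minority of the family. Leaving out icilin replicate 1, 2 or 3 left 5, 7 or 7 of the 11 past the test, and leaving out vehicle replicate 2 or 3 left 5 or 6, with the 3 called genes called each time. In whole-sample RNA, fewer cells that express a gene and less RNA per cell cannot be told apart.

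**Figure D1:**
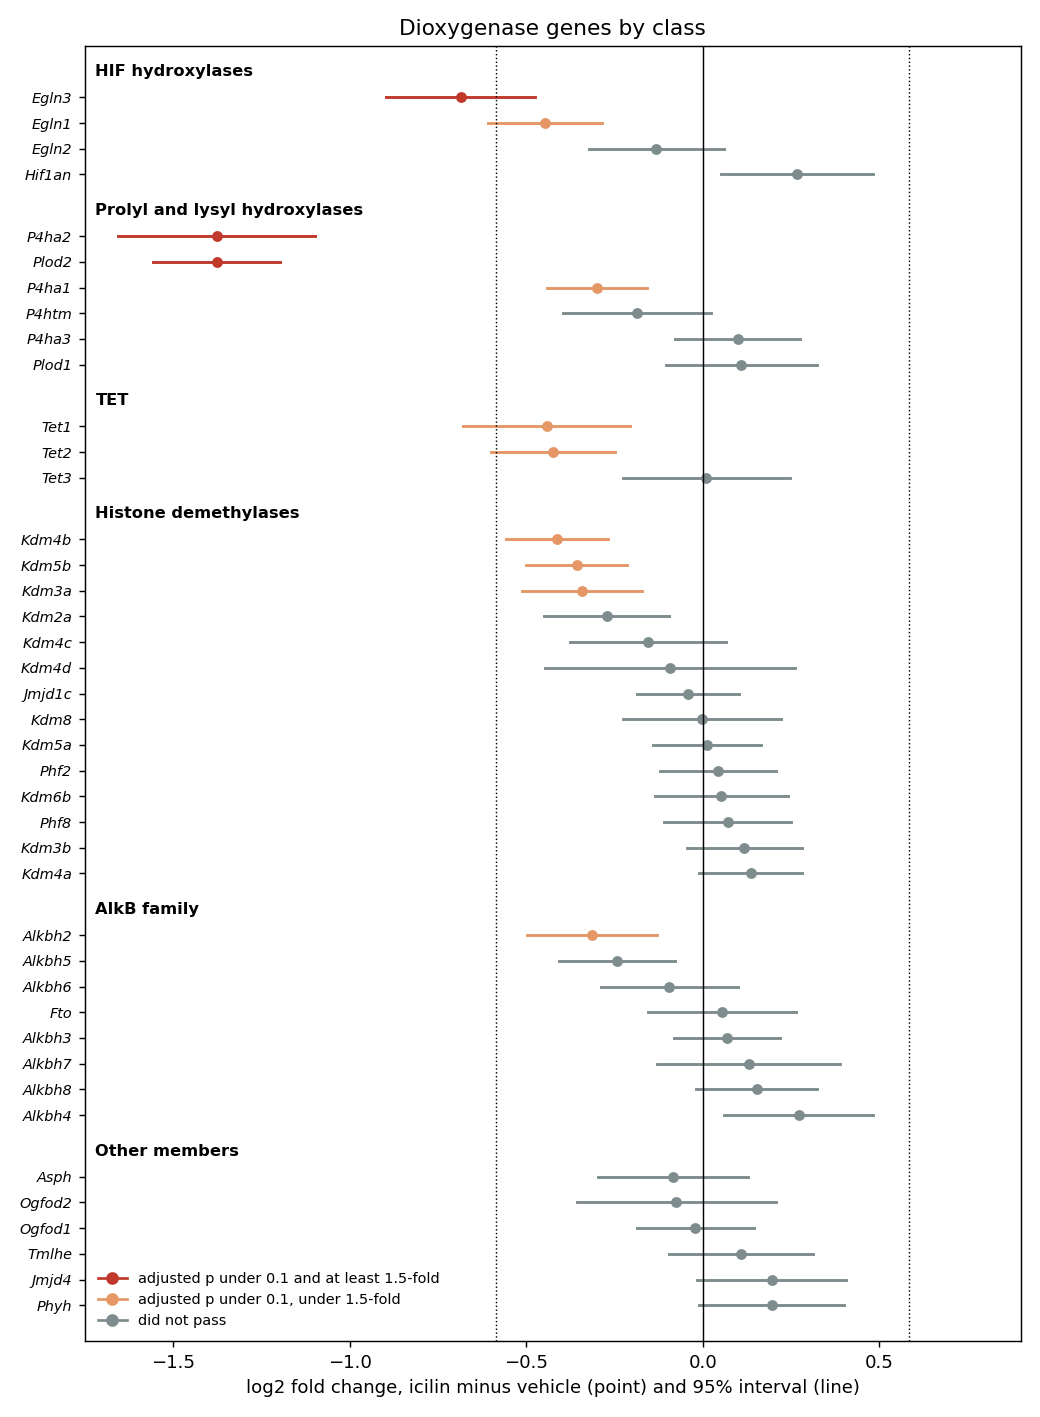
Log2 fold change (icilin minus vehicle, horizontal axis) of each of the 41 members by class, with 95% intervals from limma as lines and 1.5-fold as dotted lines. P4ha2, Plod2 and Egln3 lie left of the lower dotted line, 8 further members passed the test between it and 0, and 0 members passed to the right.

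The promoters of the collagen prolyl hydroxylase and HIF prolyl hydroxylase genes are shown first, because both families hold members that fell beside members that did not pass. Windows run from 250 bases before to 50 bases after the start site and come from RefSeq (GRCm38.p6). Capitals mark the 5-letter core that HIF is known to bind, ACGTG or GCGTG, on either strand, so that CACGT and CACGC are its reverse. Overlapping matches were each counted.
P4ha2, chr11:54100674-54100973, plus strand: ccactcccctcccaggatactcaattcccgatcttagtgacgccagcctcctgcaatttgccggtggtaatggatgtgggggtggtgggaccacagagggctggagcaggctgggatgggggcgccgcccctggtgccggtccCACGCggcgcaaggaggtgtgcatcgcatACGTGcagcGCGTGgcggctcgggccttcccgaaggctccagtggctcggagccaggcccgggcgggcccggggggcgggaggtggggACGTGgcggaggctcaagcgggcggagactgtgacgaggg
P4ha1, chr10:59323046-59323345, plus strand: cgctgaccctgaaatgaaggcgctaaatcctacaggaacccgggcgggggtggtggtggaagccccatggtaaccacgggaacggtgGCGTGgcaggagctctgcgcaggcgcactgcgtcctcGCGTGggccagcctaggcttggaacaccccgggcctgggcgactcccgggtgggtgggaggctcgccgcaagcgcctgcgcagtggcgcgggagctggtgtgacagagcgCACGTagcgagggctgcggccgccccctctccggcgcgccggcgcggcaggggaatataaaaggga
P4ha3, chr7:100285270-100285569, plus strand: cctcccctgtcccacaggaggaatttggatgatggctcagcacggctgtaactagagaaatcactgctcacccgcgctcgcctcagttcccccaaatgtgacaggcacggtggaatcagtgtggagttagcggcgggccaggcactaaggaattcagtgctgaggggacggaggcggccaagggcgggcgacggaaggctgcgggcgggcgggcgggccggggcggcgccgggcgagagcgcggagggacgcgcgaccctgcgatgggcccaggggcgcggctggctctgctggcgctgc
Egln3, chr12:54203825-54204124, minus strand: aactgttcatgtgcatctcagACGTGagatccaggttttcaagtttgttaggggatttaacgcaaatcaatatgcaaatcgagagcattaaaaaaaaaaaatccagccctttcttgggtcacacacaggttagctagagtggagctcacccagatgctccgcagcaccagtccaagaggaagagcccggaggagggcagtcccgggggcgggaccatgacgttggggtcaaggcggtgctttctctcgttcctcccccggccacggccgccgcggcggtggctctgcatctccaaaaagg
Egln1, chr8:124949205-124949504, minus strand: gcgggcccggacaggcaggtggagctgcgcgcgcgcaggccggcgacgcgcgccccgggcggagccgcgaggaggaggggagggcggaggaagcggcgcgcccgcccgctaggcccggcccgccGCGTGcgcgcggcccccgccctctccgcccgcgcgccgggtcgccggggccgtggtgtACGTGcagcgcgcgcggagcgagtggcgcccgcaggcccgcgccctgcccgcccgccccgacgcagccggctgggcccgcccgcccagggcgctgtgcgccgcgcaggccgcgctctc
Egln2, chr7:27166753-27167052, minus strand: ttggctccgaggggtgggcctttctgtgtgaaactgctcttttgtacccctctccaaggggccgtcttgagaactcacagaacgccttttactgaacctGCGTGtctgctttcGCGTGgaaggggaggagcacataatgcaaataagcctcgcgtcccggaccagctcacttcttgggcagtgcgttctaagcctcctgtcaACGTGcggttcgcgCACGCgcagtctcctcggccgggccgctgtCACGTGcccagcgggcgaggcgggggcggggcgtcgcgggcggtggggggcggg

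The P4ha2 window held 4 cores, at bases 144, 173, 182 and 261, and the P4ha1 window held 3. The P4ha3 window held 0. The Egln3 window held 1 core, at base 22, and the Egln1 window 2. Egln2, which did not pass, held 6, of which 2 share the palindrome CACGTG, and its second listed window held 1. A core in the window therefore did not go together with a fall in every case. Of the 41 members, 33 had a promoter window. Plod2 and Kdm4b, which fell, had none and are not covered by the shares that follow. Of the 9 members that fell and had a window, 8 (88.9%) held a core in at least 1 window, the exception being Tet1. The same was found in 12 of the 24 members that did not pass (50.0%), in 53.1% of all tested genes with a window, in 65.4% of all genes that passed lower and in 60.8% of those that passed higher. These shares are descriptions of letters in short windows and were not tested.

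Among the prolyl and lysyl hydroxylases of collagen, the changes were large in P4ha2 and Plod2, and elsewhere small or short of the test. P4ha2 encodes a catalytic alpha subunit of collagen prolyl 4-hydroxylase. Its signal was 5.05, 5.27 and 5.46 in the icilin arrays and 6.52, 6.76 and 6.63 in the vehicle arrays. The highest icilin array was 1.06 below the lowest vehicle array. P4ha2 fell to 0.385 times its vehicle level, a difference of -1.38 ± 0.12 (adjusted p = 0.00227). Plod2, which encodes the lysyl hydroxylase of collagen telopeptides, had signals of 6.80, 6.62 and 6.59 with icilin and of 8.02, 8.08 and 8.04 with vehicle. Its vehicle arrays lay within 0.06 of each other and its icilin arrays within 0.21, so the groups were far apart against their own spread. Plod2 also fell to 0.385 times its vehicle level (-1.38 ± 0.08, adjusted p = 0.000672). P4ha1, the more widely expressed alpha subunit, had signals of 9.01, 9.05 and 9.06 with icilin and of 9.38, 9.31 and 9.33 with vehicle. It fell by a smaller step (-0.30 ± 0.06, adjusted p = 0.0485). The 95% intervals of P4ha2 (-1.66 to -1.10) and P4ha1 (-0.44 to -0.16) did not overlap; the difference between the changes of these genes was not itself tested.

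The remaining genes of this class did not pass. The transmembrane prolyl hydroxylase gene P4htm differed by -0.19 ± 0.09 (adjusted p = 0.349), and its groups overlapped. P4ha3, the third alpha subunit gene, was dim, with means of 3.60 in icilin and 3.50 in vehicle arrays (0.10 ± 0.08). Plod1, the lysyl hydroxylase of the collagen helix, differed by 0.11 ± 0.09, with a 95% interval of -0.10 to 0.32 that lay above that of Plod2 (-1.56 to -1.20). Thus 3 of 6 members of the class fell, 2 of them past 1.5-fold, and the class median was -0.24. Among all genes, 3.00% passed lower and 1.03% were called lower.

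Of the 4 HIF hydroxylase genes, 2 fell. Egln3 encodes the prolyl hydroxylase PHD3, whose gene is a known target of HIF. Its signal was 10.7, 10.8 and 10.8 in icilin and 11.3, 11.6 and 11.4 in vehicle arrays. Egln3 fell to 0.622 times its vehicle level (-0.69 ± 0.09, adjusted p = 0.0105), and its interval (-0.90 to -0.47) spans the 1.5-fold limit. Egln1 encodes PHD2, regarded as the main oxygen sensor of the pathway and likewise HIF-induced. It measured 9.40, 9.39 and 9.43 with icilin and 9.93, 9.86 and 9.76 with vehicle. Egln1 fell by less than 1.5-fold (-0.45 ± 0.07, adjusted p = 0.0194), with every icilin array below every vehicle array. Egln2, which encodes PHD1, differed by -0.13 ± 0.08 (adjusted p = 0.477). Hif1an, the gene of the asparaginyl hydroxylase FIH, lay on the other side: it measured 6.69, 6.62 and 6.81 with icilin against 6.29, 6.56 and 6.47 with vehicle. These groups did not overlap, but the difference of 0.27 ± 0.09 did not pass (adjusted p = 0.198). The class median was -0.29. For comparison, 3.00% of all genes passed lower and 2.27% higher.

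**Figure D2:**
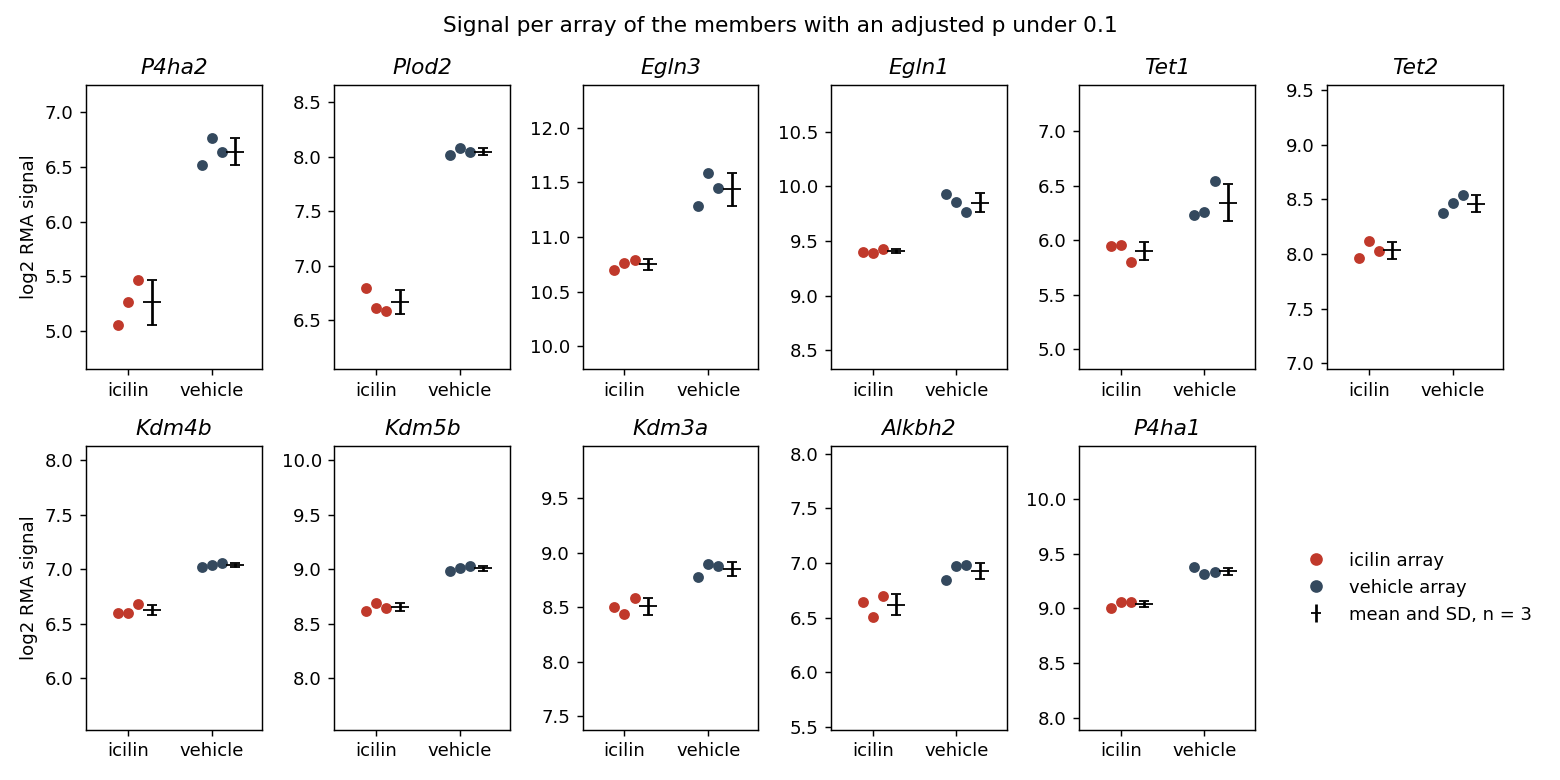
Log2 RMA signal (vertical axis) of the 11 members with an adjusted p under 0.1, in 3 icilin and 3 vehicle arrays, with the mean and SD beside each group and the same height of axis in every panel. In all 11 panels the icilin arrays lie below the vehicle arrays, by the widest gap in Plod2 and P4ha2.

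TET enzymes oxidise 5-methylcytosine, the first step of active DNA demethylation. Tet2 measured 7.96, 8.12 and 8.03 in icilin arrays and 8.38, 8.46 and 8.54 in vehicle arrays. It fell by 0.42 on the log2 scale (SE 0.07, adjusted p = 0.0307), and the groups were apart by 0.26. Tet1 measured 5.95, 5.96 and 5.80 with icilin and 6.24, 6.26 and 6.54 with vehicle, where replicate 3 was the highest. It fell by 0.44 (SE 0.10, adjusted p = 0.0733). Tet3 stood at 8.22 ± 0.09 in icilin and 8.21 ± 0.17 in vehicle arrays (SD, n = 3 each), a difference of 0.01 with a 95% interval of -0.23 to 0.25. Tet1 missed the test in each of 6 fits that left out 1 array (adjusted p 0.104 to 0.196), and Tet2 missed it in 4 of them, those without icilin replicate 1, icilin replicate 3, vehicle replicate 2 and vehicle replicate 3 (adjusted p up to 0.117).

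Of 14 measured histone demethylase genes, 3 fell, all by less than 1.5-fold, and 0 rose (before adjustment, 4 had a p under 0.05 and a lower level, and 0 a higher one), with a class median of -0.02; SAM called 0. Kdm4b, whose product removes repressive methyl marks from histone H3 and whose gene is a known HIF target, measured 6.59, 6.60 and 6.68 with icilin and 7.02, 7.03 and 7.06 with vehicle. The arrays of each group lay close together, and Kdm4b fell to 0.751 times its vehicle level (-0.41 ± 0.06, adjusted p = 0.0174). Kdm5b, which removes methyl groups linked to active promoters, measured 8.62, 8.70 and 8.65 with icilin and 8.99, 9.01 and 9.03 with vehicle (-0.36 ± 0.06, adjusted p = 0.0274). Kdm3a, a second HIF-induced demethylase of repressive marks, measured 8.50, 8.43 and 8.59 with icilin and 8.78, 8.89 and 8.88 with vehicle (-0.34 ± 0.07, adjusted p = 0.0552). None of these groups overlapped. Among all genes, 3.00% passed lower and 2.27% higher. Kdm5b missed the test without icilin replicate 1 or vehicle replicate 2 (adjusted p up to 0.110), and Kdm3a missed it in 4 fits, those without icilin replicate 1, icilin replicate 2, vehicle replicate 2 and vehicle replicate 3 (adjusted p up to 0.179).

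Close relatives of these 3 genes did not pass. Kdm3b, the paralog of Kdm3a, differed by 0.12 ± 0.07, and Jmjd1c, of the same subfamily, by -0.04 ± 0.06. Kdm5a, the paralog of Kdm5b, differed by 0.01 ± 0.07, with an interval of -0.14 to 0.17. In the Kdm4 subfamily, Kdm4a differed by 0.14 ± 0.06 with no overlap of the groups (adjusted p = 0.320), Kdm4c by -0.15 ± 0.09, and the dim Kdm4d by -0.09 ± 0.15. Paralogs thus gave values on both sides of 0, and the differences between them were not tested. Kdm2a, a demethylase with a CpG-binding domain, measured 8.67, 8.86 and 8.80 with icilin and 9.02, 9.12 and 9.01 with vehicle, and its difference of -0.27 ± 0.08 did not pass (adjusted p = 0.126). The polycomb-mark demethylase gene Kdm6b (0.05 ± 0.08), the PHD-finger demethylase genes Phf8 (0.07 ± 0.08) and Phf2 (0.04 ± 0.07) and Kdm8 (0.00 ± 0.10) lay near 0 with overlapping groups.

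Several AlkB enzymes remove alkyl groups from nucleic acids. Of 8 measured genes, 1 fell: Alkbh2, which repairs alkylated bases in DNA, measured 6.64, 6.51 and 6.70 with icilin and 6.85, 6.97 and 6.98 with vehicle. Its difference was -0.31 ± 0.08 (adjusted p = 0.0959), close to the limit of the test, and without any 1 array it did not pass (adjusted p 0.117 to 0.248). Alkbh5 and Fto, whose enzymes remove methyl groups from methyladenosine in RNA, did not pass. Alkbh5 was lower in every icilin array (9.44, 9.43 and 9.42) than in every vehicle array (9.57, 9.73 and 9.73), with a difference of -0.24 ± 0.07 (adjusted p = 0.139). Fto differed by 0.05 ± 0.09, with overlapping groups. Alkbh4 was higher in every icilin array (7.03, 6.87 and 7.06) than in every vehicle array (6.67, 6.85 and 6.62), the highest difference of the family (0.27 ± 0.09, adjusted p = 0.185). The tRNA-modifying Alkbh8 differed by 0.15 ± 0.07, the mitochondrial Alkbh7 by 0.13 ± 0.11, the repair enzyme gene Alkbh3 by 0.07 ± 0.06 and Alkbh6 by -0.10 ± 0.08. The class median was 0.06. For comparison, 3.00% of all genes passed lower and 2.27% higher.

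Of 6 further hydroxylase genes, 0 passed in the limma test, SAM called 0, and 0 had an unadjusted p under 0.05. They encode enzymes of carnitine synthesis (Tmlhe, 0.11), of phytanic acid breakdown (Phyh, 0.20), of ribosomal protein hydroxylation (Ogfod1, -0.02) and of hydroxylation of a translation termination factor, known from human cells (Jmjd4, 0.20), and Ogfod2 (-0.08). Asph, which hydroxylates epidermal growth factor-like domains, differed by -0.08 ± 0.09 in its brighter probe set. Its dimmer probe set stood at 4.22 ± 0.09 in icilin and 4.85 ± 0.17 in vehicle arrays (SD, n = 3 each), a difference of -0.64 with no overlap. With both probe sets averaged, Asph fell by 0.36 (adjusted p = 0.0422), so its result depends on the probe set. Kdm6b and Phyh also had a second probe set, with differences of -0.04 and -0.12 and overlapping groups.

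A list of members whose genes are reported as induced by low oxygen was set beside the rest. The list may be incomplete, so the other 32 may hold further such genes. Of the 9 listed members (Egln1, Egln3, P4ha1, P4ha2, Plod1, Plod2, Kdm3a, Kdm4b and Kdm4c), 7 fell and 0 rose, with a median of -0.41. Over all genes tested, 3.00% passed lower and 2.27% higher. All 9 listed members were brighter than the median gene, and of the 11090 such genes 569 passed lower and 431 higher. Plod1 and Kdm4c were the members of this list that did not pass. Of the other 32, 4 fell (Tet1, Tet2, Kdm5b and Alkbh2), with a median of 0.01 and values from -0.44 to 0.27. This list was drawn with earlier results of these data known and is no independent evidence. Of the 38 members that were not called, 35 had a 95% interval wholly inside 1.5-fold in both directions, and Egln1, Tet1 and Tet2 had one that reached it.

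Genes of HIF itself changed in different directions. Hif3a, a HIF alpha subunit that can act as a brake on the others, measured 5.46, 5.18 and 5.73 with icilin and 6.18, 6.38 and 6.51 with vehicle. It was the 1 called gene of 6 on this list (-0.90 ± 0.15, adjusted p = 0.0262), and its call ended without vehicle replicate 2 (-0.89, adjusted p = 0.101). Over all genes, 1.03% were called lower and 0.370% higher. Vhl, the ubiquitin ligase subunit that recognises hydroxylated HIF, fell by less (-0.39 ± 0.07, adjusted p = 0.0323), and Epas1, which encodes HIF-2 alpha, rose (0.37 ± 0.08, adjusted p = 0.0565). Vhl no longer passed without vehicle replicate 3 or any 1 of the icilin replicates (adjusted p up to 0.120), and Epas1 no longer passed without any 1 array other than vehicle replicate 3 (adjusted p up to 0.181). Arnt (-0.10 ± 0.07) and Arnt2 (-0.03 ± 0.08) did not pass. Hif1a, the gene of HIF-1 alpha, did not pass either (0.13 ± 0.06, limma adjusted p = 0.328), but with an intensity trend and robust variances it passed higher (adjusted p = 0.03485). Its second, dimmer probe set lay the other way, at 5.18 ± 0.04 with icilin and 5.45 ± 0.21 with vehicle (SD, n = 3 each), with groups that overlapped. With both probe sets of Hif1a averaged the difference was -0.07 ± 0.07 (limma adjusted p = 0.687), so no direction is given for it.

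Lists of genes that supply the enzymes' cosubstrate, iron and partners held 0 to 2 genes each that passed, where 3.00% of all genes passed lower and 2.27% higher. These counts are small, and whether any list differs from all genes was not tested. Of 13 genes of enzymes that make or exchange 2-oxoglutarate, 2 rose and 0 fell: the alanine aminotransferase gene Gpt2 (0.45 ± 0.07, adjusted p = 0.0200) and, named after its value was seen, the branched-chain aminotransferase gene Bcat1 (0.38 ± 0.09, adjusted p = 0.0804). Of 10 genes that use 2-oxoglutarate or act on succinate, fumarate and 2-hydroxyglutarate, 0 passed in limma, SAM called 0, and 0 had an unadjusted p under 0.05. The smallest p there was that of the dehydrogenase subunit gene Dld (0.12 ± 0.07). Of 15 genes of ascorbate and iron supply, 1 fell, the transferrin receptor gene Tfrc (-0.26 ± 0.06, adjusted p = 0.0818). Of 15 collagen partners, 1 fell: P4hb, the protein disulfide isomerase that forms the beta subunit of collagen prolyl 4-hydroxylase (-0.28 ± 0.07, adjusted p = 0.0756). Of 12 further genes of the jumonji and hydroxylase families, 1 fell: Jarid2, a polycomb partner that has lost the catalytic activity of its family (-0.45 ± 0.06, adjusted p = 0.0107). Medians of these 5 lists lay between 0.00 and 0.05. Bcat1 passed in 1 of 6 fits without 1 array, P4hb in 1 and Tfrc in 0, while Gpt2 and Jarid2 passed in 6.

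**Figure D3:**
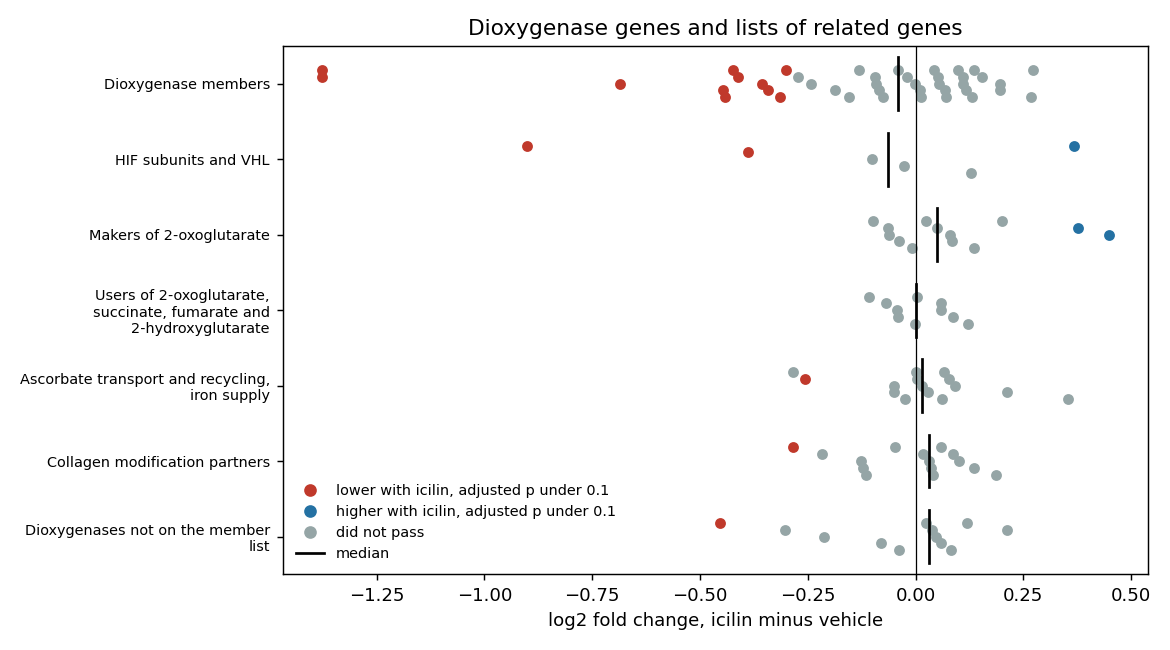
Log2 fold change (icilin minus vehicle, horizontal axis) of the dioxygenase members and of 6 lists of related genes, 1 point a gene, with the median of each list as a black line. Red points passed lower and blue points higher. The members hold 11 red and 0 blue points, while Gpt2, Bcat1 and Epas1 are the blue points of the other lists.

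How firmly each fall stands differs between members. Plod2, P4ha2, Egln3, Egln1 and Kdm4b passed in every one of the 6 fits that left out 1 array, with adjusted p between 0.00364 and 0.0847. P4ha1, Tet1 and Alkbh2 passed in 0 of these 6 fits, although their differences kept their sign (P4ha1 -0.31 to -0.28, adjusted p 0.119 to 0.163). Such a fit has fewer arrays and so a wider error.

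**Figure D4:**
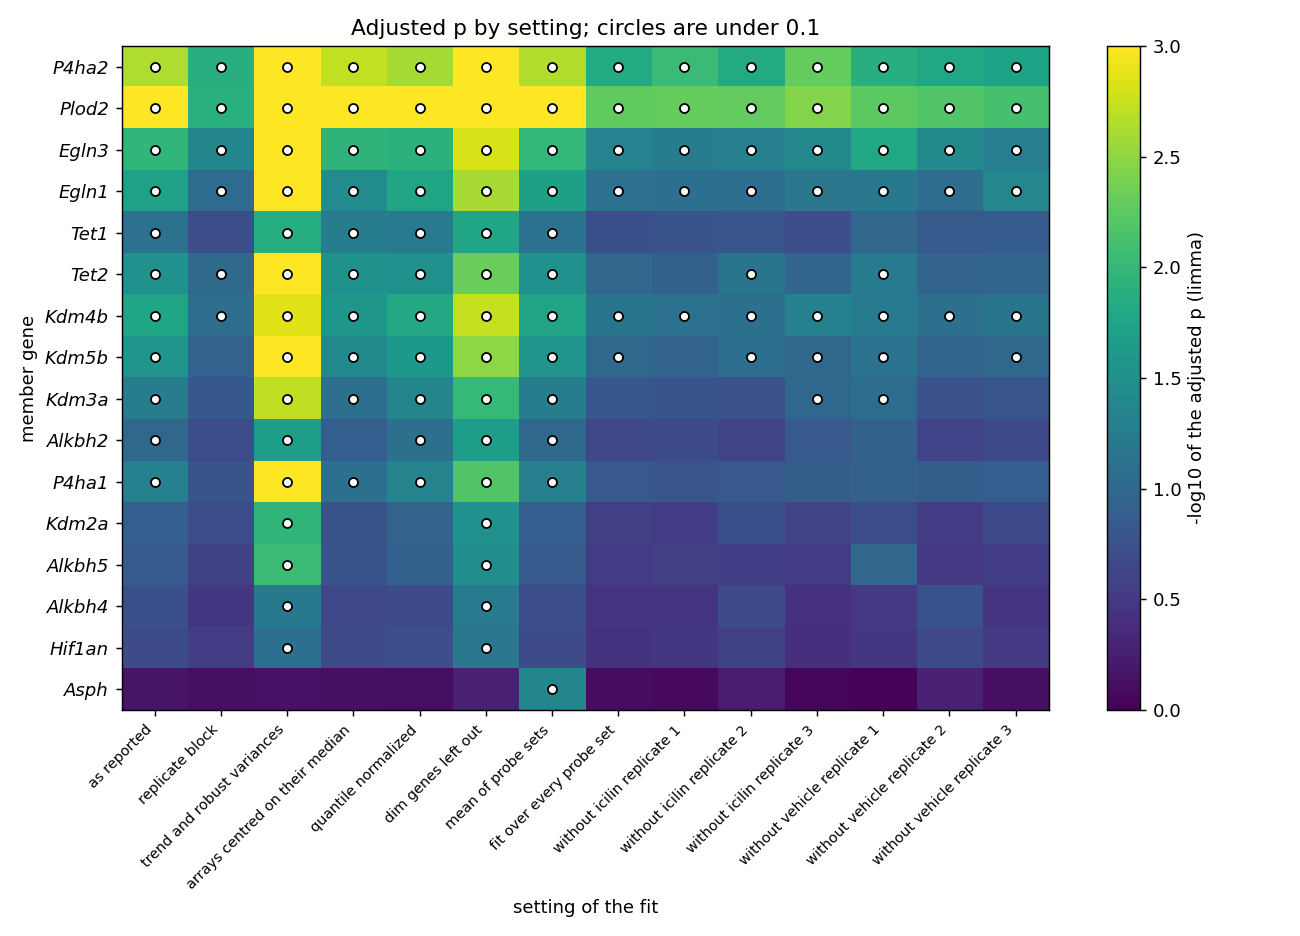
Adjusted p on a -log10 scale (colour) of 16 member genes (rows) in the fit as reported and in each alternative fit (columns), with circles where it is under 0.1. The rows of P4ha2, Plod2, Egln3, Egln1 and Kdm4b hold a circle in every column, and that of Asph in the column with probe sets averaged.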

How the data were processed

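Gene expression was measured on 6 Affymetrix Mouse Gene 2.0 ST arrays, 3 per group. The authors deposited log2 values made with RMA, per the series design text and the submitters' processing notes, which corrects background, normalizes between arrays and summarises probes. RMA makes array distributions alike, so a shift shared by most genes would not show, and it compresses differences of dim genes. No version or genome build of the annotation was given in the sources used here. Array medians were 4.24 to 4.30.

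Of 41345 probe sets, 23521 had 1 gene symbol in the array annotation, 1814 several and 16010 none. Those with 1 were used, keeping the brightest per gene, which left 22180 genes. The two-sided test was limma's moderated test (version 3.58.1, R 4.3.3), fitted by lmFit and eBayes without a trend, robust variances or a block. An exact permutation test on 2 groups of 3 has 0.1 as its smallest p, whereas limma pools the spread over genes. Whether equal replicate numbers mark the same mouse is not stated. Errors are SE from limma or SD of 3 arrays. The limma p-values set each difference against the spread between these arrays, moderated over all genes and without pairing by mouse. Limits of 1.5-fold and 0.1 are those of the study, whose own test, significance analysis of microarrays (SAM), was an alternative, written anew with 20 permutations. Both were run on simulated data with known changes, all larger than 1.5-fold, so smaller changes were not checked. The members and gene lists were chosen with earlier results of these data known. Named beyond the members were all HIF subunit genes, and for other lists the called genes or the gene with the smallest p. Promoter windows came from RefSeq (GRCm38.p6). Tables and figures used Python 3.11.15, pandas 2.3.3 and matplotlib 3.10.9.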

Additional observations from a re-analysis of the deposited data

How the results depend on the processing

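The count of 3 members called lower and 0 higher was the same with the replicate number as a block, with an intensity trend and robust variances, with arrays centred or quantile normalized, with dim genes left out, with probe sets averaged, over every probe set, without any 1 array, and by SAM, which called 329 genes in all. With an adjusted p under 0.05 and no fold limit it was 8 lower and 0 higher, and with 2-fold 2 lower. The 11 members that passed lower became 6 with the replicate block, 6 over every probe set and 5 to 8 without 1 array. With trend and robust variances, and likewise with dim genes left out, 13 passed lower and 2 higher (Alkbh4 and Hif1an). The replicate block ended the passes of P4ha1, Tet1, Kdm3a, Kdm5b and Alkbh2, and among related genes and markers those of Vhl (limma adjusted p = 0.1107), Epas1 (0.1095), Tfrc (0.2004), P4hb (0.1985), Bcat1 (0.1835), Cd28 (0.1442) and Klrd1 (0.1969), while Hif3a, Gpt2, Jarid2 and Ms4a1 still passed. Both groups came from the same 3 mice, but deviations of arrays with the same number correlated at -0.03 to 0.03 over 11090 genes, and the numbers were not taken as pairs. The histone demethylase median, -0.0216, was -0.0521 to 0.0216 without 1 array, above 0 only without icilin replicate 1, and that of the further hydroxylases, 0.0442, was 0.0079 with probe sets averaged. The HIF list held 0 to 1 called genes without 1 array. Of 531 values of members under alternatives, 39 lost and 9 gained a pass, and 0 of those that had passed changed sign. With 3 arrays a group, a difference near the median SE of 0.08 is not detectable, and larger ones also failed the test. In the fit as reported, the smallest change of a member that passed was that of P4ha1 (-0.30). Kdm2a (-0.27) and Alkbh4 (0.27) did not pass. A member that did not pass is thus not shown to be unchanged.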
